A study of Mus musculus with 6 samples.

Results

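The neural crest specifier and lineage genes examined here are 9 genes: Tfap2a, Tfap2b, Snai1, Snai2, Ets1, Erbb3, Mitf, Twist1 and Prrx1. They were taken as every probe set that the platform's annotation gives to 1 of these symbols and to no other gene, which yielded 23 of the 45037 probe sets tested, for 9 of 18193 genes. RNA came from the dorsal midbrain of C57BL/6 mouse embryos at embryonic day 10.5, and 3 control and 3 Ezh2 cko samples were each hybridized to 1 Affymetrix A430 array. Ezh2 cko embryos carry Wnt1-Cre together with 2 floxed copies of Ezh2, Wnt1-Cre+/Ezh2[SET]lox/lox, so that Cre removes the part encoding the SET domain, the catalytic domain of this histone H3 lysine 27 methyltransferase. By the methods, controls either had no Cre (Wnt1-Cre-/Ezh2[SET]lox/lox) or kept 1 wild-type copy (Wnt1-Cre+/Ezh2[SET]lox/wt), whereas the labels call every control WT. Every embryo thus carried at least 1 floxed allele by the methods, and which control carried Cre is not given. Each group came from 2 litters that the labels do not assign to samples, so the p-values measure the spread between these samples, part of which may be technical. Wnt1-Cre is active in the dorsal midbrain and also in the neural crest, and by the study it leaves part of the rostral dorsal midbrain unrecombined.

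The neural crest is a transient population of vertebrate embryos that arises at the border of the neural plate. Its cells leave the dorsal neural tube through an epithelial-to-mesenchymal transition, migrate, and form peripheral neurons, glia, pigment cells and, in the head, mesenchyme that builds cartilage, bone and connective tissue. Border and specifier factors such as the AP-2 proteins, the Snail proteins and Ets1 act early, while Erbb3, Mitf, Twist1 and Prrx1 mark the glial, pigment and mesenchymal branches. The head mesenchyme that surrounds the midbrain is partly of crest origin and can be carried along in a dissection of the dorsal midbrain.

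None of the 9 genes passed the test over all probe sets, and they did not behave alike. Probe sets of Prrx1, Tfap2a, Tfap2b and Snai2 lay higher in Ezh2 cko, by 1.21-fold to 2.01-fold in the 9 of their sets that had all 3 Ezh2 cko arrays above all 3 control arrays. Snai1, Erbb3 and Mitf gave differences between -0.26 and 0.06, and Ets1 and Twist1 lay between -0.02 and 0.20. In limma, 0 of 23 member probe sets passed an adjusted p of 0.05, against 0.184% of all probe sets called higher and 0.00444% called lower. At an unadjusted p under 0.05 there were 10 member probe sets, all higher, beside 7.55% of all probe sets in either direction, and the unpaired test gave 7 at that level and 0 after adjustment. The groups did not overlap for 10 of the 23 sets, all higher in Ezh2 cko, which is 43.5% of them. Over all probe sets, 5.72% lay entirely higher and 7.27% entirely lower. Sets of the same gene are repeat readings on the same 6 arrays, and Prrx1 alone gave 4 of the 10. With the brightest set of each gene, Tfap2a, Tfap2b, Snai2 and Prrx1 were without overlap. Over all genes, 7.52% lay entirely higher and 7.88% entirely lower. The methods called a gene at 1.75-fold or more together with an unadjusted p no higher than 0.01, and 1 member probe set met this, a Prrx1 set, beside 0.24% of all sets higher and 0.02% lower. That count was 0 with the unpaired test, with the neuron marker mean as a term, without control array 1 and Ezh2 cko array 3, and with 1 set per gene. The median log2 difference was 0.20 over the members and -0.02 over all probe sets, and 73.9% of the members against 43.1% of all sets had a positive difference. The members were chosen with earlier results of these data known, so the shares above are not independent of that choice. In bulk tissue, fewer cells of a type and less RNA per cell cannot be told apart.

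**Figure D1:**
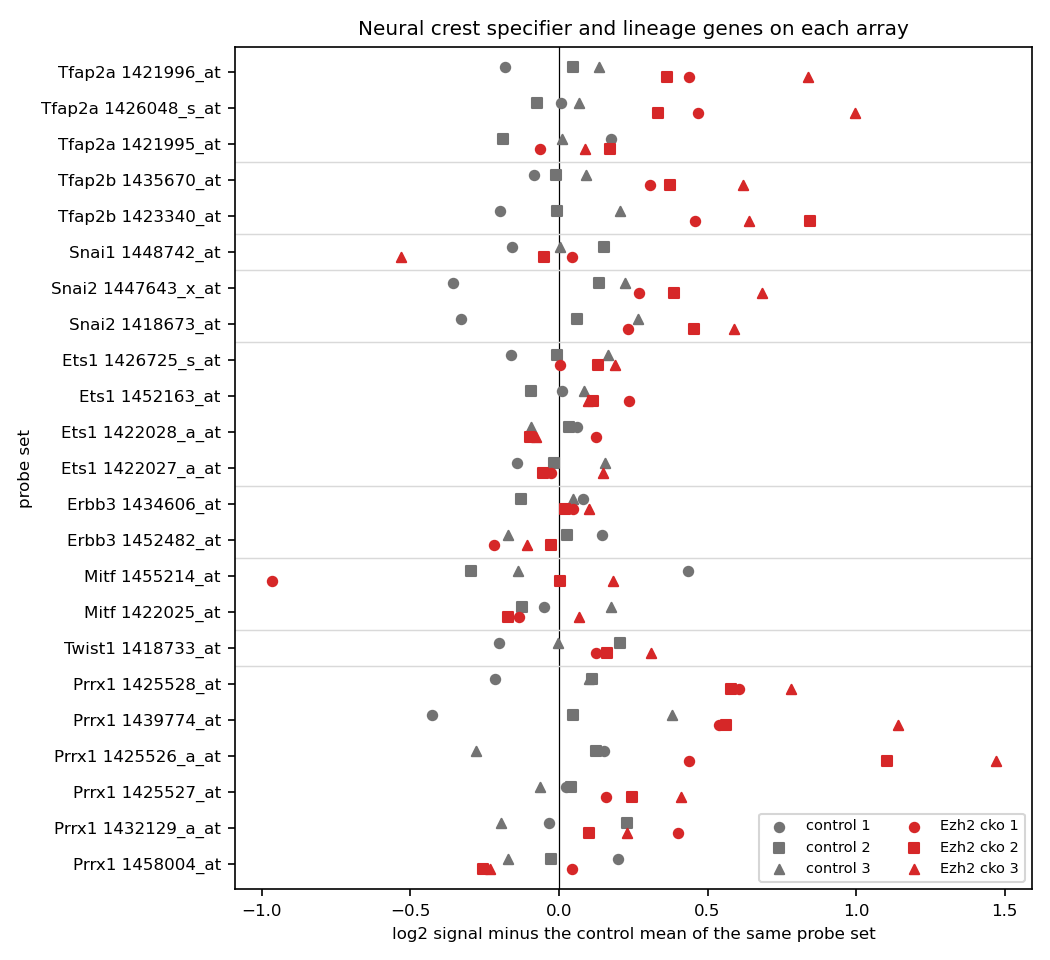
Each row is 1 of the 23 member probe sets, and the horizontal axis gives its log2 signal on each of the 6 arrays minus its own control mean. Grey symbols are the 3 control arrays and red symbols the 3 Ezh2 cko arrays, with 1 shape per replicate number. Red and grey are separate in 10 rows, among them 4 of the 6 Prrx1 sets and both Tfap2b sets, and mix in the rows of Snai1, Erbb3, Mitf and Twist1.

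Promoter sequences are shown for the genes with the clearest separation, Prrx1, Tfap2b and Tfap2a, and for Snai1, which did not separate, so that the regions upstream of genes with unlike results can be read side by side. They are the 250 bases before an annotated start in RefSeq on GRCm38.p6, written 5′ to 3′ on the strand of the gene, and the table held such windows for 6 of the 9 genes, 9 windows in all. The windows are chr1:163313651-163313900 on the minus strand for Prrx1, chr1:19211804-19212053 on the plus strand for Tfap2b, chr13:40734921-40735170 and chr13:40733796-40734045 on the minus strand for Tfap2a, and chr2:167537945-167538194 on the plus strand for Snai1. Capitals mark matches to the motifs searched on both strands: TAATTA, read by many homeodomain proteins; CANNTG, the E-box bound by basic helix-loop-helix proteins; its forms CAGGTG and CACCTG, which Snail proteins bind and which lie within CANNTG; and GCCNNNGGC, bound by AP-2 proteins.
Prrx1: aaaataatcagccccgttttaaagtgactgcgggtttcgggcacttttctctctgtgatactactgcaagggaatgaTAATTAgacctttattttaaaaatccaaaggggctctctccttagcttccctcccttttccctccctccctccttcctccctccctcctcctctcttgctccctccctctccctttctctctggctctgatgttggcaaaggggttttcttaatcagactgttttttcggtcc
Tfap2b: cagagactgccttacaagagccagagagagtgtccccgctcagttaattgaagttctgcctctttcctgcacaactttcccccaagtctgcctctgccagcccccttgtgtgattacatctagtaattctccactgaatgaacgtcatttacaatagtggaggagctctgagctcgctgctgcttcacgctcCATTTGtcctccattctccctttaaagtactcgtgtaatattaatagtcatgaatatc
Tfap2a, upstream start: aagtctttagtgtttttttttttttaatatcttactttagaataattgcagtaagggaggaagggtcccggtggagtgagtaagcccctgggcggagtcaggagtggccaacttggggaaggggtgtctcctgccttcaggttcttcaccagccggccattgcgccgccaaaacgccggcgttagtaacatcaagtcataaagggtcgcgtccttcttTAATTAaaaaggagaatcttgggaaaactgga
Tfap2a, downstream start: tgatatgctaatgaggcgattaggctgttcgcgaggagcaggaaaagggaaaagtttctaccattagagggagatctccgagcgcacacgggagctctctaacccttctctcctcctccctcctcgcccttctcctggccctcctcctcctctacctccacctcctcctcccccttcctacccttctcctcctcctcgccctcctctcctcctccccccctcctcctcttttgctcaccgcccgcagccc
Snai1: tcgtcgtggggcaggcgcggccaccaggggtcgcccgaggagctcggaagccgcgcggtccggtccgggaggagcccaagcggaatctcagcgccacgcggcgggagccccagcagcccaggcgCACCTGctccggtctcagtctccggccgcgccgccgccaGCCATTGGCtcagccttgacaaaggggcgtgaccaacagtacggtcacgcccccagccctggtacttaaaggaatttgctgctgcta

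TAATTA was present in the Prrx1 window, in 1 Tfap2a window and in 1 of the Mitf windows, 3 of 9 member windows, against 4.84% of all 32851 windows. An E-box was present in 3 of 9 member windows, those of Tfap2b and Snai1 and 1 of Mitf, against 66.2% of all windows. The CAGGTG or CACCTG form was present in the windows of Snai1 and Mitf only, 2 of 9, against 17.2% of all. The AP-2 motif was found in 1 of 9, the Snai1 window, against 13.7% of all. The Snai1 window held 27 CpG dinucleotides, the Twist1 window 18, the Tfap2a windows 10 each and the Mitf windows 15, 4 and 3. The Tfap2b window held 5 and the Prrx1 window 4, and the median of all windows was 6. A match describes the letters of a window and nothing of what binds there.

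Prrx1 encodes a paired-related homeodomain factor of head and limb mesenchyme, and it had the largest differences among the members. Its brightest probe set, 1425528_at, read 8.16, 8.48 and 8.47 on control arrays 1 to 3 and 8.98, 8.95 and 9.15 on Ezh2 cko arrays 1 to 3. The lowest Ezh2 cko array lay 0.47 log2 units above the highest control array, the widest gap of any member. The log2 difference was 0.66 with a standard error of 0.11 (95% interval 0.41 to 0.91), or 1.58-fold, at an adjusted p of 0.0817 in limma, the smallest of the 23.

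The Prrx1 set 1425526_a_at read 6.64, 6.61 and 6.21 in controls and 6.93, 7.59 and 7.96 in Ezh2 cko. This was the member called at the threshold of the methods, at 2.01-fold, and also one of the most variable, since the Ezh2 cko arrays spanned over 1 log2 unit. Its log2 difference was 1.004 with a standard error of 0.24 (95% interval 0.46 to 1.55; limma unadjusted p = 0.00257, adjusted p = 0.256). Without Ezh2 cko array 3 the difference was 0.77 and the set no longer met that threshold. The set 1439774_at read 6.34, 6.81 and 7.14 in controls and 7.30, 7.33 and 7.90 in Ezh2 cko, a log2 difference of 0.75 (limma adjusted p = 0.410). Here control array 1 was well below the other two, and the groups were still separate.

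The other Prrx1 sets were dimmer, below the median signal of 5.70 over all probe sets. Of these, 1425527_at was separate between the groups at a log2 difference of 0.27 (limma adjusted p = 0.480), and 1432129_a_at overlapped at 0.24. The dimmest, 1458004_at, with a control mean of 3.32, gave -0.15 and overlapped. In all, 5 of 6 Prrx1 sets had a positive difference and 4 were separate between the groups. Prrx1 is also among the genes that the study listed from these same arrays, which is not independent evidence of its direction.

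Tfap2a and Tfap2b encode AP-2 transcription factors of the neural plate border, the premigratory crest and the surface ectoderm, and Tfap2b is also made in midbrain neurons. The brighter Tfap2b set, 1435670_at, read 10.01, 10.08 and 10.18 in controls and 10.39, 10.46 and 10.71 in Ezh2 cko. The other, 1423340_at, read 7.999, 8.19 and 8.402 in controls and 8.66, 9.04 and 8.84 in Ezh2 cko. Neither set overlapped between the groups, and different Ezh2 cko arrays were highest in each. The log2 differences were 0.43 with a standard error of 0.10 (95% interval 0.20 to 0.66; limma adjusted p = 0.247) and 0.65 with a standard error of 0.13 (95% interval 0.35 to 0.94; limma adjusted p = 0.162).

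For Tfap2a, the set 1421996_at read 7.20, 7.43 and 7.52 in controls and 7.82, 7.75 and 8.22 in Ezh2 cko. The set 1426048_s_at, of a type prone to cross-hybridisation, read 6.61, 6.52 and 6.67 in controls and 7.06, 6.93 and 7.59 in Ezh2 cko. In both, Ezh2 cko array 3 stood above the other Ezh2 cko arrays, and all 3 lay above the controls. The log2 differences were 0.55 with a standard error of 0.14 (limma adjusted p = 0.302) and 0.60 with a standard error of 0.16 (limma adjusted p = 0.333), and without that array they were 0.40 in each. The third set, 1421995_at, gave 0.07 with overlapping groups (95% interval -0.19 to 0.32; limma adjusted p = 0.933), so that the sets of this gene did not give 1 value.

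Snai1 and Snai2 encode Snail zinc-finger repressors that lower E-cadherin when cells leave the epithelium. The Snai2 set 1447643_x_at read 8.84, 9.34 and 9.42 in controls and 9.47, 9.59 and 9.88 in Ezh2 cko. The second set, 1418673_at, read 6.70, 7.09 and 7.29 in controls and 7.26, 7.48 and 7.61 in Ezh2 cko. Control array 1 was the lowest in both, the first set was separate by a gap of 0.05 log2 units, and the second overlapped. The first set is of a type prone to cross-hybridisation. The log2 differences were 0.45 with a standard error of 0.16 (limma adjusted p = 0.572) and 0.43 with a standard error of 0.16 (limma adjusted p = 0.565), and they were 0.27 and 0.26 without control array 1.

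The Snai1 set, 1448742_at, read 5.79, 6.10 and 5.96 in controls and 6.00, 5.90 and 5.42 in Ezh2 cko. Only Ezh2 cko array 3 lay below the control range, the same array that was the highest for both Snai2 sets. The log2 difference was -0.18 (95% interval -0.53 to 0.17; limma adjusted p = 0.847), and it was near 0 without that array.

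Ets1, an ETS-domain factor of cranial crest and of endothelium, had both of its bright sets a little higher. The set 1452163_at read 9.71, 9.61 and 9.79 in controls and 9.94, 9.82 and 9.80 in Ezh2 cko, a log2 difference of 0.15 (95% interval -0.04 to 0.34; limma adjusted p = 0.752). The groups were separate by only 0.01 log2 units. The set 1426725_s_at overlapped at 0.11, and the dim sets 1422028_a_at and 1422027_a_at were at -0.02 and 0.02.

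Erbb3 encodes the neuregulin receptor of crest-derived glia and their precursors. Its set 1434606_at read 6.20, 5.99 and 6.17 in controls and 6.17, 6.14 and 6.22 in Ezh2 cko, so that the arrays of both groups were mixed. The log2 difference was 0.06 with a 95% interval of -0.13 to 0.25 (limma adjusted p = 0.925). The dimmer set 1452482_at gave -0.12 with overlap (limma adjusted p = 0.849).

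Mitf, the central transcription factor of the melanocyte lineage, was the least precise member. The set 1455214_at read 6.70, 5.97 and 6.13 in controls and 5.30, 6.27 and 6.44 in Ezh2 cko, with the lowest value on Ezh2 cko array 1 and the highest on control array 1. The log2 difference of -0.26 had a 95% interval from -0.94 to 0.42, and it was 0.09 without Ezh2 cko array 1. The second set, 1422025_at, had a control mean of 3.61 and a difference of -0.08.

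Twist1, a basic helix-loop-helix factor of cranial mesenchyme, read 8.41, 8.82 and 8.61 in controls and 8.74, 8.77 and 8.92 in Ezh2 cko on its 1 set, 1418733_at. The groups overlapped, with control array 2 above Ezh2 cko arrays 1 and 2. The log2 difference was 0.20 (95% interval -0.06 to 0.46; limma adjusted p = 0.756), and it was 0.10 without control array 1 and 0.30 without control array 2.

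**Figure D2:**
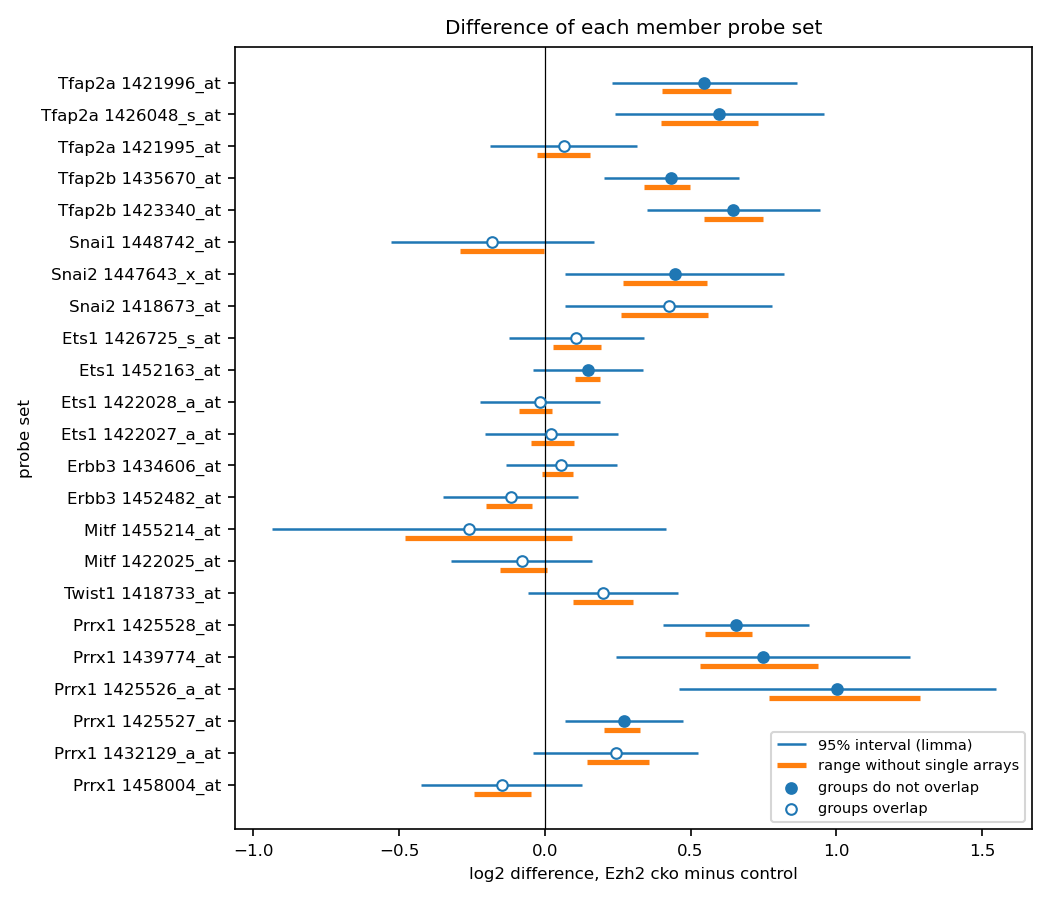
The horizontal axis gives the log2 difference, Ezh2 cko minus control, of each of the 23 member probe sets, with a blue line for the 95% interval in limma and an orange line for the range of the difference when 1 of the 6 arrays was left out. Filled points are the 10 sets whose groups did not overlap. The intervals of the 2 Tfap2b sets, 2 Tfap2a sets, 2 Snai2 sets and 4 Prrx1 sets lie above 0, and those of Snai1, Ets1, Erbb3, Mitf and Twist1 include it.

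Members with related roles were set against each other by the difference between 2 genes on each array, using the brightest set of each gene. These 3 pairs were picked after the values had been seen, and an exact two-sided permutation test of 3 against 3 arrays cannot go below p = 0.1. Snai2 relative to Snai1 was higher in Ezh2 cko by 0.63 log2 units (exact permutation p = 0.1, adjusted over the 3 pairs 0.15). This value was 0.33 without Ezh2 cko array 3, and the groups were apart by only 0.01. Prrx1 relative to Twist1, both mesenchymal, was higher by 0.46 (exact permutation p = 0.1, adjusted 0.15). Tfap2b relative to Tfap2a differed by -0.11 (exact permutation p = 0.3, adjusted 0.3). For the first 2 pairs all 3 Ezh2 cko arrays lay above all 3 controls, and the values for the AP-2 pair overlapped.

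The separation rested unevenly on the arrays. Of the 10 member sets without overlap, Ezh2 cko array 3 was the highest in 8 and control array 1 the lowest in 6. The median deviation of the 23 sets from their means over the 6 arrays was -0.16, -0.15 and -0.08 on the control arrays and 0.05, 0.08 and 0.21 on the Ezh2 cko arrays. Control array 1 and Ezh2 cko array 3 were also farthest apart on the first principal component of all probe sets, which held 35.1% of the variance. All 3 control arrays lay on one side of all 3 Ezh2 cko arrays on this component. Leaving both farthest arrays out can therefore by itself make group differences smaller, and it does not check for faulty arrays. With both left out, Prrx1 1425528_at was at 0.49 and the Tfap2b sets 1435670_at and 1423340_at at 0.30 and 0.55. Tfap2a 1421996_at was then at 0.31 and Snai2 1447643_x_at at 0.15. The other bright Prrx1 sets, 1425526_a_at and 1439774_at, were then at 0.85 and 0.34.

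Markers of other tissues varied over the arrays as well. Neuron markers (12 of 12 measured, among them Tubb3, Dcx, Stmn2 and Elavl4) had a median difference of 0.37, with 11 positive, 1 without overlap and medians per array of -0.47, -0.07 and 0.00 in controls and -0.10, 0.18 and 0.41 in Ezh2 cko. Macrophage markers (8 of 8, Csf1r, Aif1, Cx3cr1 and Ptprc among them) had a median of 0.15, with 8 positive and 2 without overlap. Their per-array medians were -0.29 to 0.11 in controls and -0.00 to 0.17 in Ezh2 cko. Both lists were lowest on control array 1 and highest on Ezh2 cko array 3. Markers of the surface ectoderm, which also makes AP-2 factors, had a median difference of 0.00 over 12 genes, with Krt8 at 0.09, Krt18 at 0.42, Krt14 at -0.16 and Krt5 at -0.11. Of these 12, 1 was higher and 2 were lower without overlap, the lower ones being Krt5 and, named after its value was seen, Esrp1 at -0.63. Over all genes, 7.52% lay entirely higher and 7.88% entirely lower. Endothelium markers had a median of 0.06 over 10 genes, with Pecam1 at -0.08 and Kdr at 0.23, and erythroid markers one of -0.05 over 6 genes. Signals on these arrays have no level that marks absence, so none of these lists can be called absent. Their part in the result was not tested. A model with the neuron marker mean as a further term was fitted. Neuron markers were themselves mostly lower in controls, so this model cannot tell neuron content and genotype apart. In that model, Prrx1 1425528_at was at 0.46, Prrx1 1425526_a_at at 0.72, Prrx1 1439774_at at 0.25, Tfap2b at 0.26 and 0.44, Tfap2a 1421996_at at 0.29, Snai2 at 0.07 and 0.08 and Twist1 at 0.02.

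**Figure D3:**
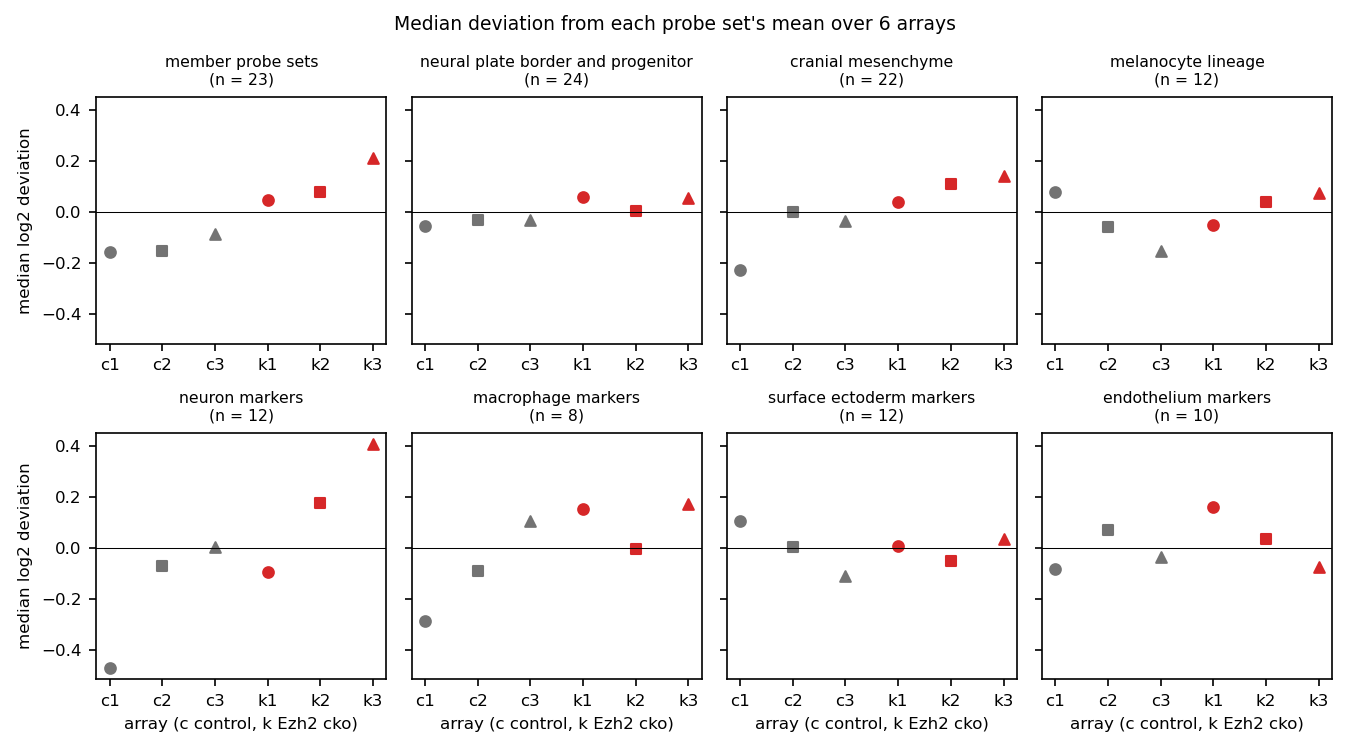
Each panel gives, for 1 list, the median over its probe sets or genes of the log2 deviation from the mean of the 6 arrays, with control arrays c1 to c3 in grey and Ezh2 cko arrays k1 to k3 in red. The member sets run from -0.16 on c1 to 0.21 on k3 with the groups separate. The groups are also separate for cranial mesenchyme, from -0.23 on c1 to 0.14 on k3. For plate border and progenitor genes they are narrowly separate, between -0.03 on c3 and 0.00 on k2. Neuron markers run from -0.47 to 0.41 with the groups overlapping, and surface ectoderm and endothelium markers show no separation. Of the lists without a panel, dorsal midbrain markers and sensory and autonomic neuron genes were also separate.

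The labelled tissue could not be checked by absence or presence of Otx2, En1, En2 and Pax7, since the signals have no such level. The median difference of the 8 dorsal midbrain markers was 0.21, with Otx2 at 0.09, En1 at 0.37, En2 at 0.17 and Pax7 at 0.06. Medians per array were -0.16, -0.12 and -0.03 in controls and 0.12, 0.05 and 0.05 in Ezh2 cko, with the groups separate. Of these 8, 3 were higher without overlap. They were En1, En2 and, named after its value was seen, Wnt1 at 0.90 (limma adjusted p = 0.0712). Neural progenitor markers (Sox2 at 0.03, Nes at -0.03, Sox1 at 0.05 and Sox3 at -0.44) had a median of 0.00 over 8 genes, of which 2 were higher and 2 lower without overlap. Other sets of Sox1 and Sox3 were at -0.19 and -0.01. The shares over all genes were 7.52% entirely higher and 7.88% entirely lower. The Ezh2 probe set 1416544_at read 11.70 ± 0.05 in controls and 11.75 ± 0.04 in Ezh2 cko (SD, n = 3; limma adjusted p = 0.918), and where its probes lie relative to the deleted part is not known here, so it does not check the labels.

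Other genes of the neural crest were described from 6 lists, of which 99 of 107 genes had a probe set of their own, each gene represented by its brightest set. None passed the adjusted p in limma, where 0.297% of all genes were called higher and 0.0055% lower, and the smallest adjusted p was 0.0541. At an unadjusted p under 0.05 there were 24 genes, 24.2% beside 8.87% of all genes, and the unpaired test gave 15 at that level and 0 after adjustment. All Ezh2 cko arrays lay above all controls for 21 genes, 21.2%, against 7.52% of all genes, and below for 1, 1.01%, against 7.88% of all genes. Pax3, Pax7, Vim, Fabp7 and Gap43 are also in the lists of dorsal midbrain, neural progenitor or neuron markers. Vim and Fabp7 are among the 21. The median difference was 0.09 over the 99 and -0.02 over all genes.

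Among 24 genes of the plate border and of crest progenitors, 4 were without overlap, all higher, and the median was 0.06. The border factors Msx1 and Msx2 were at 0.34 and 0.47, without overlap, and Pax3 and Pax7 at 0.28 and 0.06, with overlap. Msx2 read 8.11, 8.02 and 8.14 in controls and 8.74, 8.43 and 8.52 in Ezh2 cko (limma adjusted p = 0.170). Foxd3 and Sox10, specifiers of premigratory and migrating crest and named here after their values were seen, were at 0.00 (95% interval -0.27 to 0.27) and -0.06 (95% interval -0.33 to 0.21). Among 20 genes of delamination and migration, the median was 0.07, and 4 were without overlap. Cdh11, a cadherin of migrating crest and mesenchyme, was at 0.29 without overlap, Zeb2 at -0.25, Zeb1 at -0.01 and Cdh6 at -0.21.

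Among the lineage lists, which were not tested against each other, cranial mesenchyme had 22 measured genes. Of these, 8 were higher without overlap and 1 lower, at a median of 0.22. Pdgfra, a receptor of mesenchymal cells, was at 0.34 and Col1a2 at 0.37, both without overlap, and Col1a1 at 0.35 and Col3a1 at 0.19 overlapped. Dimmer sets of these genes gave smaller differences, from -0.00 to 0.14 for Pdgfra, from -0.03 to 0.25 for Col1a2, 0.23 for Col1a1 and -0.02 for Col3a1. Alx1, a homeodomain factor of frontonasal mesenchyme, read 5.17, 5.17 and 5.30 in controls and 5.87, 5.67 and 5.86 in Ezh2 cko, a difference of 0.59 with the smallest adjusted p of the 99 genes (limma, 0.0541), while its other set was at 0.06. Foxc2, a forkhead factor of the same tissue, read 5.24, 5.39 and 5.195 in controls and 4.84, 5.01 and 4.80 in Ezh2 cko, a difference of -0.39 (limma adjusted p = 0.248). Alx1 and Foxc2 were named after their values were seen.

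In the glial list, 12 of 14 genes were measured, with a median of 0.09 and 2 without overlap. Fabp7, which is also made by neural progenitors, was at 0.49, Sox10 at -0.06, S100b at 0.09 and Erbb2, the partner receptor of Erbb3, at -0.14. The melanocyte list had a median of 0.06 over 12 genes, and 1 was without overlap. Its pigment genes Dct, Tyr, Tyrp1 and Pmel were at 0.41, -0.12, 0.05 and 0.06, all with overlap, and Dct rested on Ezh2 cko array 3, at 5.88 against 4.89 on both other Ezh2 cko arrays. In the list of sensory and autonomic neurons, 10 of 14 genes were measured at a median of 0.17. Medians per array were -0.17, -0.07 and -0.06 in controls and 0.07, 0.02 and 0.19 in Ezh2 cko, with the groups separate. Pou4f1, which is also made by midbrain neurons, was at 0.49 without overlap, and Phox2a, Isl1 and Neurog1 were at 0.06, 0.19 and -0.19 with overlap.

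**Figure D4:**
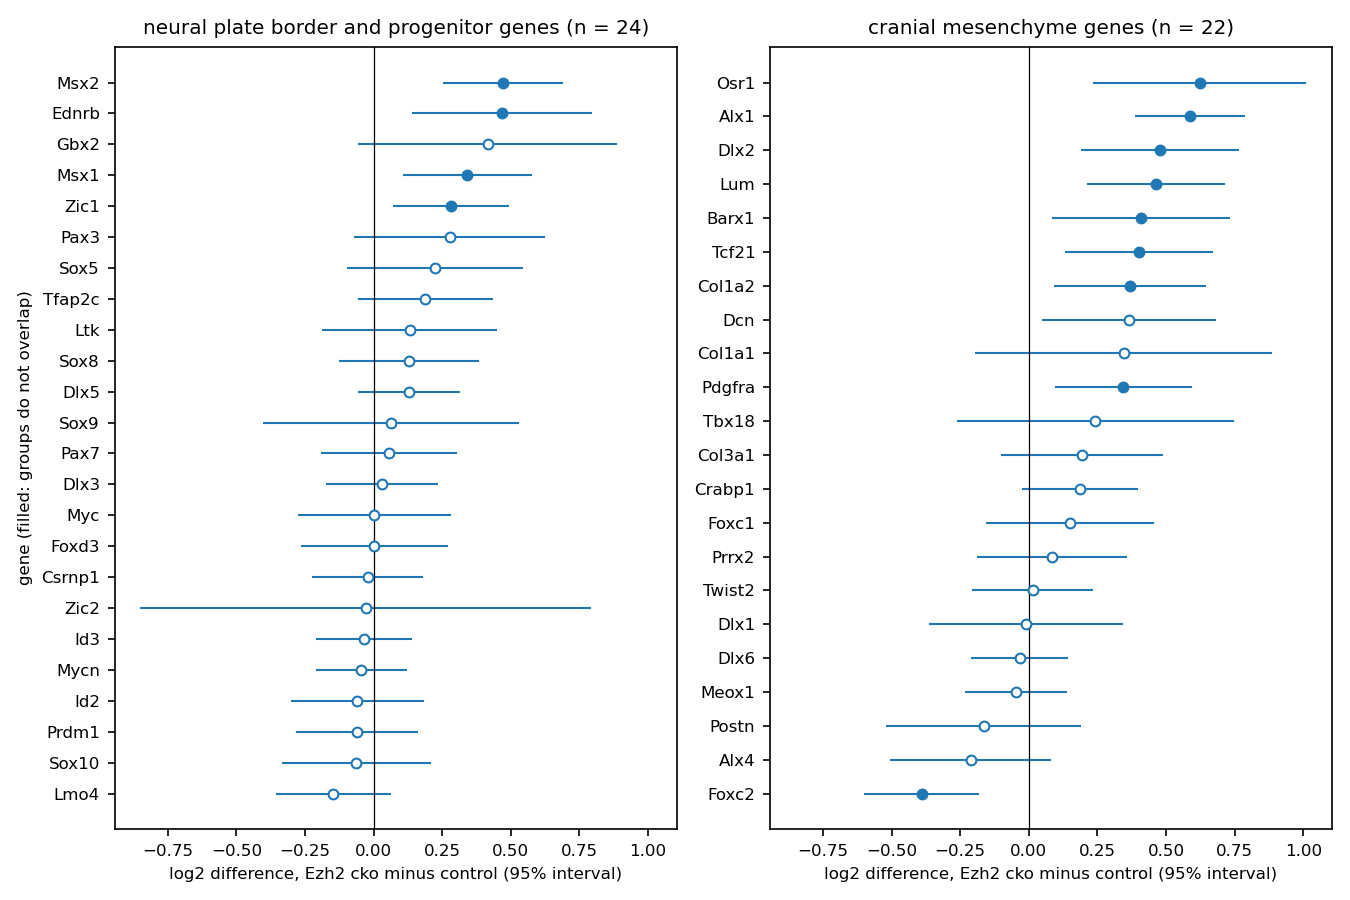
Points give the log2 difference, Ezh2 cko minus control, of each gene of 2 lists with its 95% interval in limma, sorted by size, and filled points are genes whose groups did not overlap. In the plate border and progenitor list 4 of 24 genes are filled, and in the cranial mesenchyme list 9 of 22, of which Foxc2 lies below 0.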

How the data were processed

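Total RNA of 6 dorsal midbrain samples was measured on 1 array each. The values deposited by the authors are log2 signals, 1 per probe set, made with RMA. This method subtracts background, forces 1 distribution on all arrays and combines the probes of a set, so that differences in overall signal between arrays are removed. The RMA version is not given in the sources used here. Array medians were 5.68 to 5.72. Signals carry no depth, and the number of arrays limits the precision.

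After removal of 64 control sets, 45037 probe sets were fitted in R 4.3.3 with limma 3.58.1 (lmFit, eBayes), Ezh2 cko minus control, with Benjamini-Hochberg adjustment over all of them. Symbols came from the platform's annotation (34945 sets with 1 symbol, 932 with several, 9160 with none), updated by Entrez identifier for 34741. A signal depends on its probes, so levels of different probe sets were not tested against each other; gene pairs were compared by how their difference changed between the groups, and "bright" and "dim" describe the signal alone. The members and lists were chosen with earlier results of these data known. Named by rule were all member sets and the first 4 measured genes of each list in its written order. Further genes are said to be named after their values were seen. Promoter windows came from RefSeq, GRCm38.p6. Members Snai2, Ets1 and Erbb3 had no window in that table. The procedure was tested on simulated arrays with independent noise and larger changes than those of most members. That test does not cover changes of the size of most member differences.

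The member counts past a threshold, the member differences and their median were computed again under alternatives. So was the count of crest list genes past the adjusted p. The alternatives were the unpaired t-test, array weights, a trended and robust prior, cyclic loess, median centring and a second quantile normalization. Others left out dim sets (mean below 5.70) or sets prone to cross-hybridisation, or added a replicate block or the neuron marker mean as a term. The rest used 1 set per gene, other thresholds, or all arrays but 1 in turn, as far as each choice applies. The methods name the unpaired test for their statistics but give no test for the arrays. Gene pairs and the values of lists and list genes were not run under these alternatives, except that pairs were computed without each array. Leaving out both arrays farthest out on the first principal component, and leaving out arrays for the pairs, were chosen after seeing the data.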

Additional observations from a re-analysis of the deposited data

How the results depend on the processing

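Under the alternatives run, 0 of 23 member probe sets passed an adjusted p of 0.05 in limma or the unpaired test, and the smallest adjusted p was 0.0523; with an adjusted p of 0.1 as threshold, 1 passed. The count at the threshold of the methods, 1, was 0 with the unpaired test, with the neuron marker mean as a term and with 1 set per gene. It was also 0 with both farthest arrays left out (control 1 and Ezh2 cko 3), and 5 at 1.5-fold. Leaving out 1 array gave 0 to 2, with 0 without Ezh2 cko 3 and 2 without Ezh2 cko 1. The median member difference, 0.20, was 0.43 without dim sets, 0.10 with the neuron marker mean, and 0.15 to 0.29 when 1 array was left out. The cause of these shifts was not tested.

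Same-numbered samples deviated with correlations of 0.06, -0.20 and 0.06, and differently numbered ones with -0.16 to 0.12. The labels do not assign litters, so whether the replicate numbers pair the samples is not known. With the replicate block, 0 member sets passed the adjusted p and 1 of the crest list genes did, Ret, at a difference of 0.89. Ret was named after its value was seen, and its other set was at 0.01.

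Of 381 member differences under alternatives, 18 changed sign, all in 8 sets whose difference was 0.26 or smaller in size. Ets1 1422027_a_at was at -0.0149 with array weights, -0.134 with the neuron term and -0.110 without both farthest arrays. Under the last 2, Ets1 1426725_s_at was at -0.0700 and -0.0131, and Ets1 1422028_a_at at 0.106 and 0.0438. Prrx1 1458004_at was at 0.0909 with the neuron term. Leaving out 1 array moved Ets1 1422027_a_at over -0.0473 to 0.101, Ets1 1422028_a_at over -0.0872 to 0.0239, Tfap2a 1421995_at over -0.0278 to 0.154, Erbb3 1434606_at over -0.00816 to 0.0968, Mitf 1422025_at over -0.154 to 0.00771 and Mitf 1455214_at over -0.481 to 0.0930.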
